A study of Mus musculus with 28 samples.

Results

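The 36 genes described here are the known targets of the transcription factor ATF4 (16 genes, called the ATF4 arm below) and the sensors, chaperones and degradation factors of the endoplasmic reticulum (ER) that ATF6 and XBP1 drive (20 genes, the chaperone arm). They were taken by name, through the RefSeq accession printed beside each array probe, and all 36 had a probe among the 37208 genes and transcripts measured. The study measured total liver RNA of male mice fed a diet with phenobarbital or without it, on Agilent arrays of 1 colour, with 1 array per animal and 28 arrays in all. CD-1 mice received 0 or 1500 ppm for 7 days (n = 4 each), and hCAR/hPXR mice, which carry humanized forms of the nuclear receptors CAR and PXR, received 0 or 1000 ppm for 7 days (n = 7 each). C3H/HeNCrlCrlj mice, called C3H here, received 0 or 500 ppm for 27 weeks (n = 3 each), and all 6 had first been injected once into the peritoneum with diethylnitrosamine, which starts liver tumours, at 90 mg/kg. Phenobarbital is a barbiturate that activates CAR in the liver. The labels do not say whether C3H liver pieces held tumours, nor how the humanized receptors were introduced, and strain, dose and duration differ together, so a difference between the 3 experiments cannot be given to any 1 of these.

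Cells that lack amino acids or cannot fold their secreted proteins phosphorylate the initiation factor eIF2alpha, which slows protein synthesis as a whole while ATF4 is translated more; ATF4 then switches on genes that make, carry and recycle amino acids, with the death-associated factor CHOP among them. In the same folding stress, ATF6 is cut free of the ER membrane and the kinase IRE1 splices the messenger of XBP1, and both factors raise the chaperones, disulfide isomerases and degradation factors of the ER. ATF4 output can also rise without ER stress, through the eIF2alpha kinases that sense amino acid shortage, heme shortage or viral RNA. The liver secretes most plasma proteins, so hepatocytes carry a large ER, and phenobarbital is classically known to make the smooth ER of hepatocytes proliferate.

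A level below is the log2 processed signal of a gene's probe minus the 75th percentile of its array, so 1 unit is 2-fold, 0 is the array's 75th percentile and a level of 1 gene is never set against that of another. A gene was tested in a strain if the scanner software marked it well above background on every array of 1 or both groups, and "called" means an adjusted p under 0.05 in limma, adjusted over all genes tested in that strain. The arrays lay on 5 slides: the CD-1 controls on 1 and the treated CD-1 mice on another, so slide and treatment cannot be told apart in CD-1, and the 7 hCAR/hPXR controls with phenobarbital animal 1 on 1 slide and phenobarbital animals 2 to 7 on another. All 6 C3H arrays shared 1 slide. CD-1 arrays were dimmer: the processed signal that the brightest 1% of probes exceeded was 4018.9 to 6490.2 there, 30158.9 to 48009.8 on hCAR/hPXR arrays and 22575.6 to 31393.7 on C3H arrays. As a check of the labels, Cyp2b10, the cytochrome P450 gene that marks CAR activation, was 101-fold higher with phenobarbital in CD-1, 22.4-fold in hCAR/hPXR and 53.3-fold in C3H mice, with no overlap between groups (limma adjusted p = 1.69e-05, 2.46e-09 and 0.000335). All 7 hepatocyte markers were well above background on every array.

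The regulatory sequences are shown first because ATF6, XBP1 and ATF4 are known to read particular short elements. RefSeq start-site windows of 300 bases (250 before and 50 after the start, mouse build GRCm38.p6) were at hand for 32 of the 36 genes, all except Slc7a5, Atf6, Hyou1 and Manf. The ER stress element, ERSE, which is CCAAT, any 9 bases and CCACG, is read on either strand by ATF6 and XBP1 with the CCAAT-binding factor NF-Y. It occurred in 39 of 32851 windows of all genes (0.119%) but in those of 7 of 17 chaperone-arm genes and of 0 of 15 ATF4-arm genes. The 8 sites, since Hsp90b1 has a pair, are printed 5′ to 3′ on the strand on which the element reads, with the fixed letters in capitals and the free bases in lower case.
Hspa5: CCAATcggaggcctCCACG
Hsp90b1, upstream site: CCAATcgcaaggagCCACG
Hsp90b1, downstream site: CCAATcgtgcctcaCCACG
Dnajc3: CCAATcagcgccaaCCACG
Pdia6: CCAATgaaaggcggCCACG
Calr: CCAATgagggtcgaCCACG
Canx: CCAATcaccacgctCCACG
Creld2: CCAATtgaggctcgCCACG

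In the order printed, the sites lie at chr2:34772025-34772043 (+ strand), chr10:86705638-86705656 (-), chr10:86705533-86705551 (+), chr14:118937827-118937845 (+), chr12:17266491-17266509 (+), chr8:84847075-84847093 (+), chr11:50325800-50325818 (-) and chr15:88819520-88819538 (-), all before the start site. The shorter form ERSE-II, ATTGG, any base and CCACG, occurred in 12 of 32851 windows (0.0365%), and 2 of these belong to Dnajb11, the ER co-chaperone ERdj3, and Herpud1, a membrane protein of ER-associated degradation. The C/EBP-ATF response element, CARE, which ATF4 and its C/EBP partners bind, was searched as TGATG, any base and AA. It occurred in 1304 windows (3.97%), among them those of 4 of 15 ATF4-arm genes (Asns, Chac1, Fgf21 and Trib3) and of 1 of 17 chaperone-arm genes (Herpud1). The XBP1 motif TGACGTG occurred in 661 windows (2.01%) and, among members, only in that of Hspa5, 157 bases before its start. These matches are descriptions of letters in a short window: a match is not a shown binding site, and a gene without one may be bound elsewhere.

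4 whole windows show how the elements sit, on the strand of the gene and with matched letters in capitals: Hspa5 for ERSE and the XBP1 motif (chr2:34771840-34772139, +), Herpud1 as the member with elements of both arms (chr8:94386179-94386478, +), and Chac1 (chr2:119350992-119351291, +) and Trib3 (chr2:152344011-152344310, -) for CARE in genes that rose in C3H liver. The other ATF4-arm genes with CARE, Asns (-1.13) and Fgf21 (1.69), did not pass in C3H liver, and Asns was lower in every treated animal. Ddit3 and Phgdh rose there without a match in their windows. CARE reads on the opposite strand in Herpud1, Chac1 and Trib3, so its capitals there are the reverse complement.
Hspa5: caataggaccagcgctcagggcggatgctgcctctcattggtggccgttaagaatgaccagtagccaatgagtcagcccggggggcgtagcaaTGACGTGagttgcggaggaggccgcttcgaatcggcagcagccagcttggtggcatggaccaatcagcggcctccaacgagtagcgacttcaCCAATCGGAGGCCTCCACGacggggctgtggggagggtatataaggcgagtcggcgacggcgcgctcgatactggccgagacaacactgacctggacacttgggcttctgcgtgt
Herpud1: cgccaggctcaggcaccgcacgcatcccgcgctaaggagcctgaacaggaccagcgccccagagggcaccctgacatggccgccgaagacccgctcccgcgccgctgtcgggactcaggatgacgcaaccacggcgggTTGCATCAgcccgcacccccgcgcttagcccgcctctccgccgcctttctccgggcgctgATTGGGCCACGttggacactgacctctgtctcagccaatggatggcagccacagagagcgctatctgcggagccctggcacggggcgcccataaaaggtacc
Chac1: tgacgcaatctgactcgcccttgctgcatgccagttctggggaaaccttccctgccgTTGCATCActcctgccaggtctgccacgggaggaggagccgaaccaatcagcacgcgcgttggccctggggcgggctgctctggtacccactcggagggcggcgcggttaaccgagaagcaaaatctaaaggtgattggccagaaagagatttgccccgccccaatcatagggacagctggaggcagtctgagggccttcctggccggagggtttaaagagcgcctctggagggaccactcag
Trib3: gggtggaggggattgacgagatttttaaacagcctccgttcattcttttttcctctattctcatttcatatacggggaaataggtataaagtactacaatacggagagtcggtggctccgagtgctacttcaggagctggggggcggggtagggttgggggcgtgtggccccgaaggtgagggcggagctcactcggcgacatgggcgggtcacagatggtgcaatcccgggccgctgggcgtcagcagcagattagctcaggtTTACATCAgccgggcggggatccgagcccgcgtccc

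**Figure D1:**
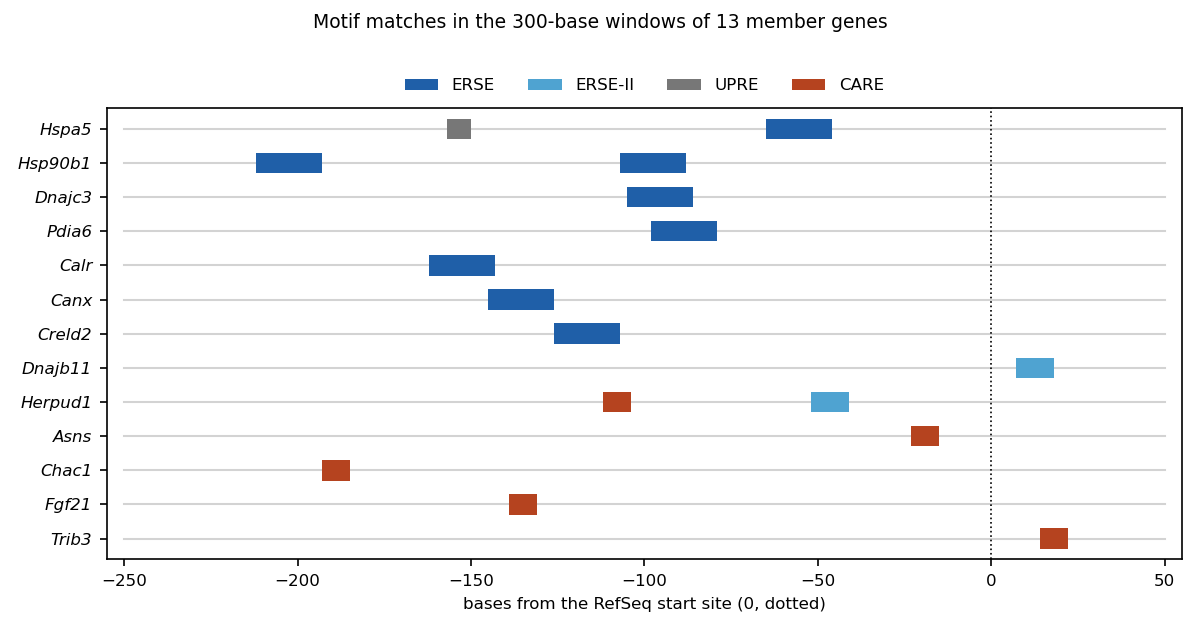
Positions of the motif matches in the 300-base windows of the 13 member genes that have one, in bases from the RefSeq start site (dotted line at 0). ERSE and ERSE-II boxes lie in the windows of 9 chaperone-arm genes, CARE boxes in those of 4 ATF4-arm genes and of Herpud1.

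In C3H liver after 27 weeks, the genes of the ATF4 arm that were called were all higher and those of the chaperone arm all lower. Of 15 ATF4-arm genes tested there, 4 rose and 0 fell, against 7.38% of all 18274 genes called higher and 7.30% called lower. The median change of the 15 was 1.36, with 13 of them above 0, beside -0.05 over all genes tested. Psat1, Mthfd2 and Slc7a5 entered through the phenobarbital group alone, where their levels were higher. With detection required in both groups the arm's median was 1.02, beside -0.04 over all genes. In that setting 4 ATF4-arm genes were called higher, as were 1099 of all 16528 genes. Of 20 chaperone-arm genes in the same livers, 0 rose and 3 fell, with a median of -0.28. The 3 phenobarbital values lay above all 3 control values for 7 of 15 ATF4-arm genes, Psat1 among them, where 17.3% of all genes tested did so. They lay below all control values for 8 of 20 chaperone-arm genes, where 24.3% did so. The labels name the samples biological replicates of liver, and less RNA per cell cannot be told apart from fewer cells of a type in any of these values.

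**Figure D2:**
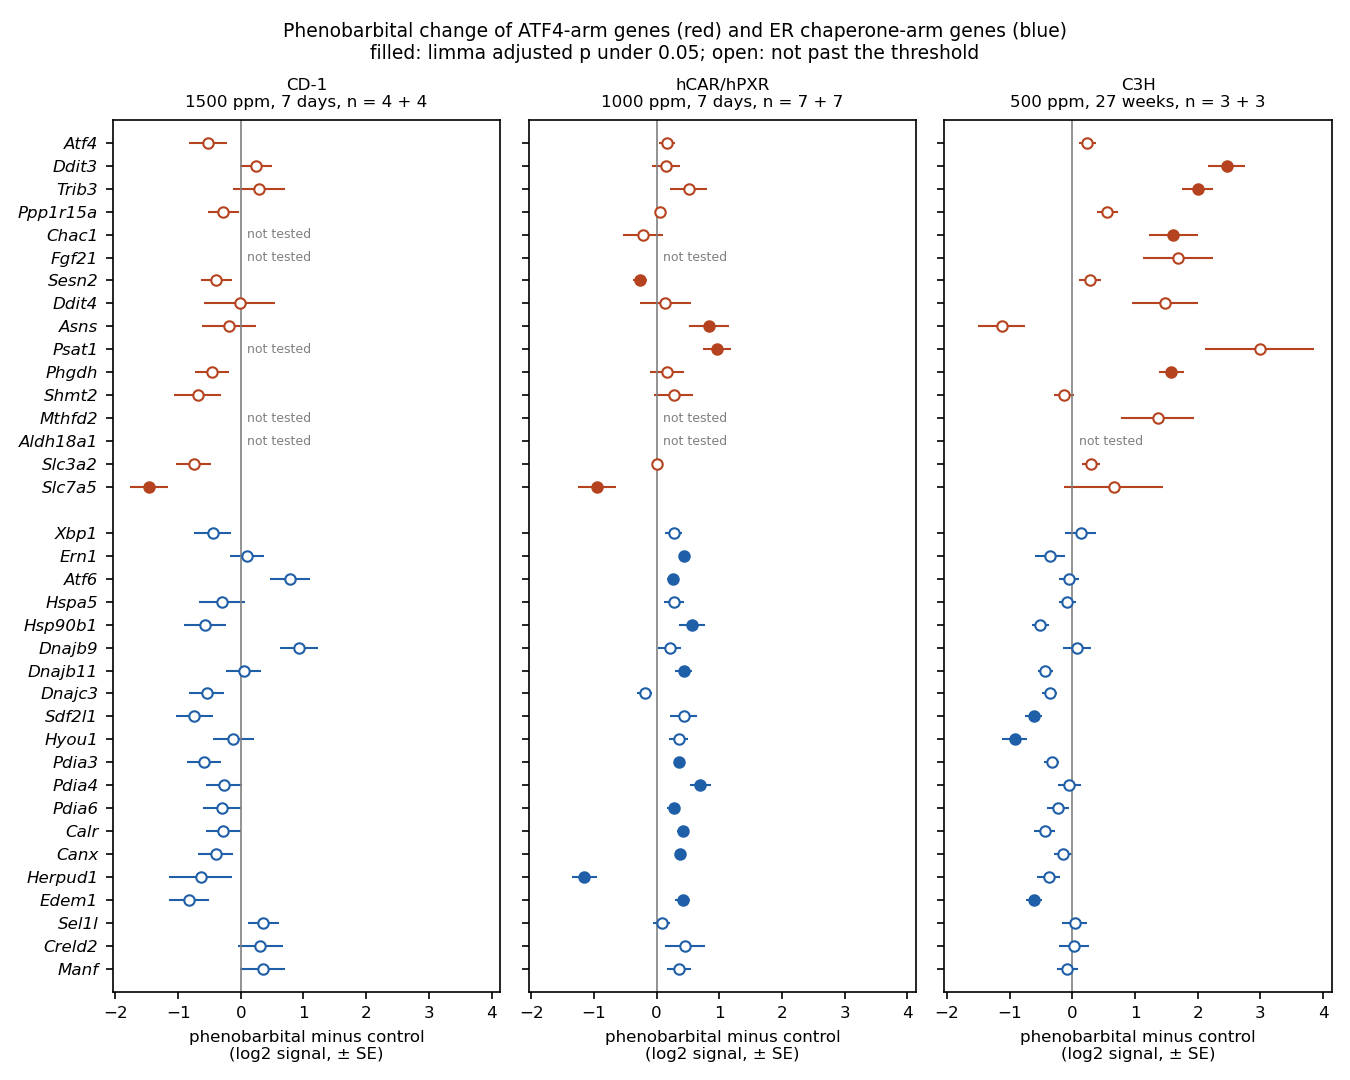
Change with phenobarbital (log2, ± SE) of the 36 members in the 3 strains, ATF4 arm in red and chaperone arm in blue; filled points passed the threshold of limma's adjusted p and open points did not. In C3H mice the ATF4 arm spreads to the right, up to 2.99 for Psat1, while the chaperone arm stays between -0.92 and 0.13. Psat1 was tested there through the phenobarbital group alone.

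Among the transcription factors and feedback genes, Ddit3, which encodes CHOP, had levels of 0.34, 0.99 and 0.13 in the C3H controls and 2.53, 3.41 and 2.89 in the phenobarbital animals. The groups did not overlap, and Ddit3 rose 5.48-fold (2.46 ± 0.30 SE, limma adjusted p = 0.00678). Trib3, a pseudokinase that CHOP and ATF4 induce and that damps ATF4 signalling, stood at 2.75, 3.21 and 3.70 in controls and at 5.22, 5.36 and 5.10 with phenobarbital. It rose 4.01-fold (2.0 ± 0.25, adjusted p = 0.00678), again without overlap and with treated animals closer together than controls. Ppp1r15a, which encodes GADD34, the subunit that brings a phosphatase to eIF2alpha and so ends the response, was at 3.31, 3.30 and 3.14 against 3.64, 4.14 and 3.66. Its difference of 0.56 ± 0.17 did not pass (adjusted p = 0.0722), although all treated animals lay above all controls. The messenger of Atf4 itself, whose protein is controlled mainly by translation, was at 7.45, 7.30 and 7.26 against 7.40, 7.74 and 7.61, a difference of 0.24 ± 0.14 that did not pass (adjusted p = 0.252). The groups overlapped because control animal 1 lay above phenobarbital animal 1.

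The same 4 genes gave no call in the mice treated for 7 days. Ddit3 was at 0.26, 0.07, 0.16 and -0.06 in CD-1 controls and 0.76, 0.10, 0.49 and 0.05 in treated CD-1 mice (difference 0.24 ± 0.26, adjusted p = 0.569). Its lowest, median and highest levels were -0.13, 0.19 and 1.51 in controls and 0.08, 0.46 and 1.07 with phenobarbital in hCAR/hPXR mice (difference 0.15 ± 0.23, adjusted p = 0.604). Both pairs of groups overlapped, and the highest single value, 1.51, belonged to an untreated animal, hCAR/hPXR control 1. Trib3 differed by 0.29 ± 0.42 in CD-1 and 0.51 ± 0.30 in hCAR/hPXR mice (adjusted p = 0.682 and 0.162). Ppp1r15a differed by -0.28 ± 0.25 and 0.05 ± 0.08 (adjusted p = 0.479 and 0.658), and Atf4 by -0.52 ± 0.30 and 0.17 ± 0.13 (adjusted p = 0.274 and 0.287).

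Of the stress outputs, Chac1, an enzyme that degrades glutathione, had C3H control levels of 3.81, 2.4 and 2.41 and phenobarbital levels of 4.38, 4.63 and 4.43. It rose 3.05-fold (1.61 ± 0.39, adjusted p = 0.0408); control animal 1 stood well above its 2 fellows but still below every treated animal. The call was lost when control 2, control 3, phenobarbital 2 or phenobarbital 3 was left out, with an adjusted p of up to 0.127 and changes of 1.38 to 2.08. Fgf21, a hormone that the liver releases in fasting and amino acid shortage, was at 1.69, 2.43 and 1.34 in controls and 2.26, 4.06 and 4.21 with phenobarbital. Phenobarbital animal 1 lay within the control range and the other 2 treated animals well above it, and the difference of 1.69 ± 0.56 did not pass (adjusted p = 0.0865). Ddit4, which encodes the mTORC1 inhibitor REDD1, showed the same layout, with 2.02, 3.09 and 3.50 against 3.37, 4.64 and 5.04 (difference 1.48 ± 0.53, adjusted p = 0.105). Sesn2, which signals amino acid shortage to mTORC1, differed by 0.28 ± 0.17 with overlapping groups (adjusted p = 0.284).

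Detection of Fgf21 separated the experiments rather than the treatments. It was well above background on all 6 C3H arrays, control and treated, and on 0 of 8 CD-1 and 0 of 14 hCAR/hPXR arrays, so no change could be measured in those strains. Chac1 was well above background on 3 of 4 CD-1 control and 2 of 4 CD-1 phenobarbital arrays and was not tested there. Chac1 in hCAR/hPXR mice ranged from 1.95 over a median of 2.79 to 3.34 in controls and from 1.21 over 2.63 to 3.23 with phenobarbital, a difference of -0.22 ± 0.32 (adjusted p = 0.571). The groups overlapped almost fully. Ddit4 differed by -0.02 ± 0.57 in CD-1 and 0.14 ± 0.41 in hCAR/hPXR mice, and neither passed (adjusted p = 0.984 and 0.79). Sesn2 fell by 0.27 in hCAR/hPXR mice (SE 0.11, adjusted p = 0.0437), from a median of 1.78 (1.58 to 1.94) to 1.55 (1.18 to 1.92) with overlapping groups, and was 0.39 ± 0.25 lower in CD-1 mice without passing (adjusted p = 0.327).

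**Figure D3:**
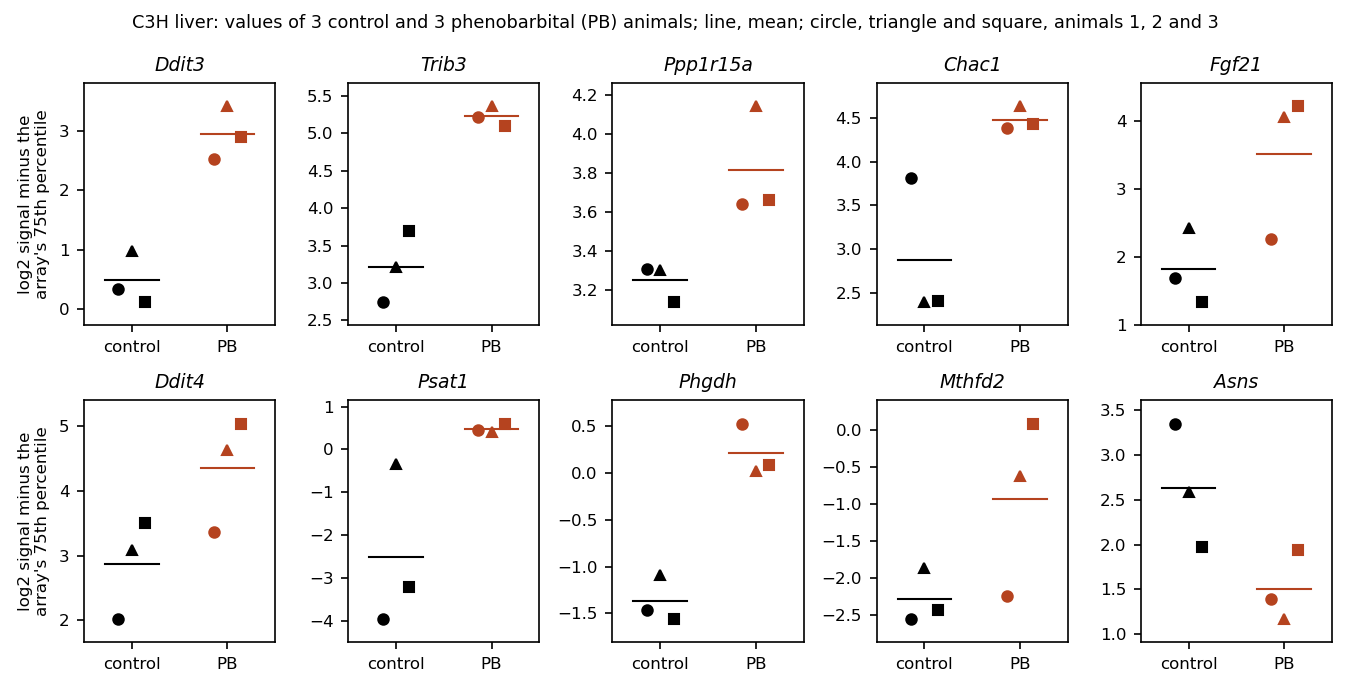
Levels (log2 signal minus the array's 75th percentile) of 10 ATF4-arm genes in each of the 3 control and 3 phenobarbital (PB) C3H animals, with lines at the means. Ddit3, Trib3, Chac1 and Phgdh passed the threshold; for Fgf21, Ddit4 and Mthfd2 phenobarbital animal 1 (circle) lies among or near the controls and animals 2 and 3 above them, and Asns lies lower in all 3 treated animals.

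Of the serine and one-carbon enzymes, 1 of 4 rose in C3H liver, where 7.38% of all genes did. Phgdh, which opens serine synthesis from a glycolytic intermediate, was at -1.46, -1.09 and -1.56 in controls and 0.53, 0.02 and 0.09 with phenobarbital. The groups lay far apart, and Phgdh rose 2.99-fold (1.58 ± 0.20, adjusted p = 0.00708). Psat1, the aminotransferase that acts after it, stood at -3.96, -0.33 and -3.22 in controls and at 0.45, 0.40 and 0.60 in treated animals. The treated animals were tight and the controls were not: control 2 alone was well above background, and the difference of 2.99 ± 0.87 missed the threshold (adjusted p = 0.0662). Without control 2 it was 4.07 and passed, and that library was named after its values were seen. Mthfd2, a mitochondrial enzyme of the folate cycle, was at -2.56, -1.87 and -2.44 against -2.25, -0.62 and 0.09 (difference 1.36 ± 0.58, adjusted p = 0.146). Shmt2, the mitochondrial enzyme that turns serine into glycine, was at 5.53, 5.40 and 5.68 against 5.60, 5.14 and 5.49 (difference -0.13 ± 0.16, adjusted p = 0.612).

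Asns, which makes asparagine and is among the best-known ATF4 targets, was lower in every treated C3H animal. Its levels were 3.35, 2.59 and 1.97 in controls and 1.39, 1.17 and 1.94 with phenobarbital, so the groups just failed to meet. The difference of -1.13 ± 0.37 did not pass (adjusted p = 0.0865). Asns in hCAR/hPXR mice rose 1.77-fold (0.83 ± 0.32, adjusted p = 0.038), from a median of 1.58 (0.80 to 2.92) to 2.81 (1.79 to 3.32), with overlapping groups. That call was lost in 9 of 14 fits with 1 animal left out (control 1, 4, 5 or 6, or phenobarbital 3, 4, 5, 6 or 7; changes of 0.66 to 1.02, adjusted p of up to 0.0793). In CD-1 mice Asns differed by -0.19 ± 0.43 (adjusted p = 0.797).

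Psat1 rose 1.94-fold in hCAR/hPXR mice (0.96 ± 0.22, adjusted p = 0.00223). Its levels ran from -3.97 over a median of -2.71 to -2.28 in controls and from -2.26 over -1.87 to -1.61 with phenobarbital. The lowest treated animal thus lay just above the highest control. Psat1 was well above background on 6 of 7 control and 7 of 7 treated arrays, so it was tested through the phenobarbital group alone. Phgdh did not follow it there, at a difference of 0.16 ± 0.27 (adjusted p = 0.618), nor did Shmt2, at 0.27 ± 0.31 (adjusted p = 0.459). In CD-1 mice Phgdh was 0.46 ± 0.27 lower and Shmt2 0.69 ± 0.37 lower, and neither passed (adjusted p = 0.281 and 0.252). Mthfd2 was well above background on 0 of 8 CD-1 arrays, as was Psat1 by the probe used. The second probe of Psat1 was well above background on 3 of 4 control and 4 of 4 treated CD-1 arrays, with means of -1.28 and -1.19 and a difference of 0.09 that did not pass (adjusted p = 0.861). That probe was well above background on 0 of 7 control and 1 of 7 treated hCAR/hPXR arrays, so the rise there rests on the first probe. Mthfd2 was not tested in hCAR/hPXR mice, where 6 of 7 control and 4 of 7 treated arrays measured it. Aldh18a1, which starts proline synthesis, was well above background on 2 of the 28 arrays, a CD-1 control and a C3H control, and was tested in no strain.

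The amino acid carriers Slc3a2 and Slc7a5, which pair into the exchanger for large neutral amino acids, gave calls for Slc7a5 alone. Slc7a5 was at 1.90, 0.68, 1.06 and 0.95 in CD-1 controls and -0.56, -0.39, -0.26 and -0.03 in treated CD-1 mice. It fell by 1.46 on the log2 scale, 2.75-fold (SE 0.30, adjusted p = 0.0119), without overlap. It was the 1 member called in CD-1 mice, where 31 members were tested and 1.85% of all 23837 genes were called higher and 6.13% lower. In hCAR/hPXR mice it fell 1.93-fold (-0.95 ± 0.31, adjusted p = 0.0176), from a median of -1.68 (-1.99 to -1.20) to -2.85 (-3.64 to -1.20), and in C3H mice it was at -2.37, -5.10 and -2.01 against -2.20, -2.86 and -2.43 (0.66 ± 0.79, adjusted p = 0.582). In hCAR/hPXR mice Slc7a5 was tested through the controls alone (7 of 7 control and 6 of 7 treated arrays well above background). In C3H mice it was tested through the phenobarbital group alone (2 of 3 and 3 of 3). Slc3a2, the shared heavy chain, differed by -0.75 ± 0.28 in CD-1, 0.01 ± 0.08 in hCAR/hPXR and 0.30 ± 0.14 in C3H mice, and none passed (adjusted p = 0.108, 0.925 and 0.189).

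The second probe of Slc7a5 did not agree. In C3H mice it read -3.07, -2.76 and -3.04 in controls and -0.56, 0.60 and 0.96 in treated animals, a 9.76-fold difference (3.29, limma adjusted p over all probes = 0.00572) with no overlap. In hCAR/hPXR mice it was 0.69 higher with phenobarbital (adjusted p = 0.0231) where the first probe was lower, and it was not well above background on any CD-1 array. The direction of Slc7a5 in hCAR/hPXR and its change in C3H mice are therefore uncertain. Of the 7 members with 2 probes, Dnajb11 disagreed too: its second probe was 0.98 lower in hCAR/hPXR mice (-0.98, adjusted p = 0.0216) where the first was 0.43 higher. The second probe of Phgdh was higher in treated C3H mice by 1.91, without passing (adjusted p = 0.0736), and lower in treated CD-1 mice by at least 3.19-fold (-2.48, adjusted p = 0.000905), where the first probe did not pass.

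In the chaperone arm, no member was called higher in C3H mice. Hyou1, an ER relative of HSP70 that reloads BiP with nucleotide, was at -0.37, -0.11 and -0.03 in controls and -0.94, -1.47 and -0.88 in treated animals, without overlap, and fell 1.89-fold (-0.92 ± 0.20, adjusted p = 0.0316). Sdf2l1, a partner of ER J-proteins, was at 4.42, 4.45 and 4.54 against 3.64, 3.93 and 3.99 and fell 1.54-fold (-0.62 ± 0.14, adjusted p = 0.0347). Edem1, which hands misfolded glycoproteins to degradation, was at 3.64, 3.53 and 3.71 against 3.18, 2.93 and 2.93 and fell 1.53-fold (-0.61 ± 0.13, adjusted p = 0.0311). In all 3 genes every treated animal lay below every control. Each of these 3 calls was lost when any animal other than phenobarbital 1 was left out, with adjusted p of up to 0.116, while the changes kept their sign (-1.03 to -0.74, -0.69 to -0.51 and -0.69 to -0.57).

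5 more chaperone-arm genes lay below all controls in every treated C3H animal without passing: Hsp90b1 (GRP94, the HSP90 of the ER; -0.51 ± 0.14, adjusted p = 0.0585), Dnajb11 (-0.43 ± 0.12, 0.0583), Dnajc3 (p58IPK, a BiP co-chaperone; -0.36 ± 0.12, 0.0816), Pdia3 (a disulfide isomerase for glycoproteins; -0.33 ± 0.12, 0.0981) and Calr (calreticulin, a lectin chaperone; -0.44 ± 0.17, 0.124). Hspa5, which encodes BiP, the central HSP70 of the ER, was at 8.20, 8.12 and 8.14 against 7.93, 7.98 and 8.30. Its difference of -0.08 ± 0.14 was within the spread of the treated animals (adjusted p = 0.715). The sensors were no clearer: Xbp1 differed by 0.13 ± 0.25, Ern1, which encodes the kinase IRE1, by -0.36 ± 0.24 and Atf6 by -0.06 ± 0.16 (adjusted p = 0.744, 0.315 and 0.819). The other 8 chaperone-arm genes, Dnajb9, Pdia4, Pdia6, Canx, Herpud1, Sel1l, Creld2 and Manf, lay between -0.38 and 0.07 with overlapping groups and adjusted p of 0.179 or more. The arrays do not separate spliced from unspliced Xbp1 messenger by any label given here.

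In each C3H animal the arms can be read side by side as the median deviation of an arm's genes from the control mean. For the ATF4 arm this was -0.13, 0.10 and -0.14 in controls and 0.49, 1.39 and 1.46 with phenobarbital, with 14, 13 and 13 of 15 genes above the control mean in the 3 treated animals. For the chaperone arm it was 0.01, -0.07 and 0.08 in controls and -0.30, -0.39 and -0.16 with phenobarbital, with 5, 0 and 8 of 20 genes above the control mean. The 15 ATF4-arm genes include Psat1, Mthfd2 and Slc7a5, which were tested through the phenobarbital group alone. Phenobarbital animal 1 was the mildest of the treated animals for the ATF4 arm. It was picked after these values were seen, and leaving out the mildest animal tends to enlarge the changes by itself. Without it 8 ATF4-arm genes rose, with Fgf21 (2.31), Ddit4 (1.97), Mthfd2 (2.02) and Ppp1r15a (0.65) joining. In that fit 4 chaperone-arm genes fell, with Dnajb11 (-0.46) joining, and the share of all genes called is not given here.

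**Figure D4:**
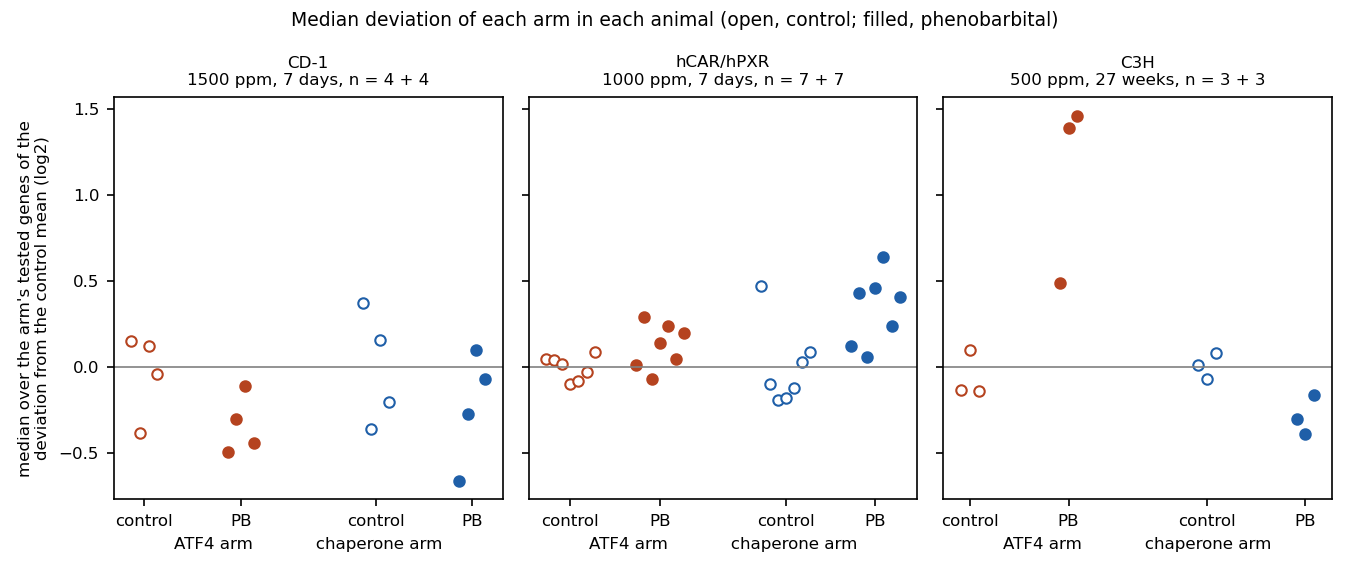
Median over the tested genes of each arm of the deviation from the strain's control mean (log2), 1 point per animal, open for controls and filled for phenobarbital. The ATF4 arm separates treated from control animals in C3H mice (0.49 to 1.46 against -0.14 to 0.10), and hCAR/hPXR control animal 1 stands at 0.47 for the chaperone arm among controls that otherwise lie between -0.19 and 0.09.

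The chaperone arm gave most of the calls in hCAR/hPXR mice. Of its 20 genes 10 were called higher and 1 lower, and of 13 ATF4-arm genes 2 were called higher and 2 lower. With detection required in both groups the ATF4-arm calls were 1 higher and 1 lower. In that setting 6737 of all 17696 genes were called higher and 3656 lower. Calls were common in this strain, with 35.0% of 20040 genes higher and 23.2% lower, and the 12 of 33 members that rose are close to that share. The median change was 0.36 in the chaperone arm and 0.15 in the ATF4 arm, beside 0.13 over all genes. Quantile normalization instead of the 75th percentile left 3 of 20 chaperone-arm genes higher and 2 lower, beside 5473 of all 20040 genes higher and 4839 lower. The share of the chaperone arm called higher was then below that of all genes. Quantile normalization also turned the ATF4-arm median to -0.07, beside 0.05 over all genes. With slide as a block the change rests on phenobarbital animal 1 alone against the 7 controls of the shared slide. The chaperone-arm median was then 0.12, and 1 treated animal cannot decide whether a call holds. Slide and treatment therefore cannot be told apart for most of these arrays either.

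The disulfide isomerases and lectin chaperones were called higher without exception, 5 of 5, where 35.0% of all genes were. Pdia4, a large isomerase of the ER chaperone complex, ran from 3.07 over a median of 3.26 to 4.08 in controls and from 3.66 over 4.10 to 4.35 with phenobarbital, and rose 1.62-fold (0.70 ± 0.16, adjusted p = 0.0017). The overlap came from 1 control, animal 1, at 4.08. Canx, which encodes the membrane lectin calnexin, ran from 5.23 over 5.37 to 5.55 and from 5.52 over 5.81 to 5.89, and rose 1.30-fold (0.37 ± 0.08, adjusted p = 0.000991). Calr rose 1.34-fold (0.42 ± 0.10, adjusted p = 0.00237), Pdia3 1.28-fold (0.36 ± 0.09, adjusted p = 0.00376) and Pdia6, an isomerase that also tunes IRE1, 1.20-fold (0.27 ± 0.10, adjusted p = 0.029). After quantile normalization Pdia4 (0.48) and Canx (0.16) kept their calls among these 5. With slide as a block, and so from 1 treated animal, Pdia4 was at 0.31 and Calr at 0.03.

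Of the HSP70 and HSP90 system, 2 of 7 genes were called higher in hCAR/hPXR mice, where 35.0% of all genes were. Hsp90b1 ran from 6.28 over 7.05 to 7.75 in controls and from 7.24 over 7.61 to 8.01 with phenobarbital, and rose 1.47-fold (0.56 ± 0.21, adjusted p = 0.0302). Dnajb11 rose 1.34-fold by its brighter probe (0.43 ± 0.14, adjusted p = 0.0169), against its second probe as given above. BiP did not pass: Hspa5 ran from 7.56 over 7.76 to 8.66 against 7.86 over 8.26 to 8.48 (0.28 ± 0.16, adjusted p = 0.139). The highest BiP level, 8.66, was that of an untreated animal. Sdf2l1 (0.43 ± 0.22), Hyou1 (0.35 ± 0.15), Dnajb9 (ERdj4, a BiP co-chaperone; 0.21 ± 0.18) and Dnajc3 (-0.19 ± 0.12) did not pass (adjusted p = 0.114, 0.0602, 0.328 and 0.204).

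The sensors Ern1 and Atf6 rose slightly in hCAR/hPXR mice. Ern1 ran from 0.93 over 1.01 to 1.14 in controls and from 1.17 over 1.52 to 1.83 with phenobarbital, a 1.36-fold rise without overlap (0.44 ± 0.09, adjusted p = 0.00108). Atf6 rose 1.19-fold (0.26 ± 0.10, adjusted p = 0.0396) with overlap, and with slide as a block, from 1 treated animal, it was at -0.19. Xbp1 differed by 0.27 ± 0.14 (adjusted p = 0.108). In CD-1 mice Atf6 was well above background on 0 of 4 control and 4 of 4 treated arrays, a difference of at least 1.23-fold that did not pass (adjusted p = 0.143).

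ER-associated degradation was split in hCAR/hPXR mice. Herpud1, which helps assemble the degradation complex, ran from 6.88 over 7.25 to 7.54 in controls and from 5.07 over 6.20 to 6.53 with phenobarbital. The groups did not overlap, and it fell 2.21-fold (-1.15 ± 0.20, adjusted p = 0.000269), the largest change of the arm, against the direction of its neighbours. It was called lower under quantile normalization too (-1.44), while with slide as a block, from 1 treated animal, it was at -0.75. Edem1 rose 1.33-fold (0.42 ± 0.12, adjusted p = 0.0087), from a median of 3.64 (3.30 to 4.12) to 4.10 (3.81 to 4.28), and Sel1l, the adaptor of the HRD1 ubiquitin ligase, differed by 0.08 ± 0.14 (adjusted p = 0.608). The secreted stress proteins Creld2 and Manf, which leave the ER when its calcium or folding is disturbed, differed by 0.45 ± 0.32 and 0.36 ± 0.19 (adjusted p = 0.243 and 0.107).

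**Figure D5:**
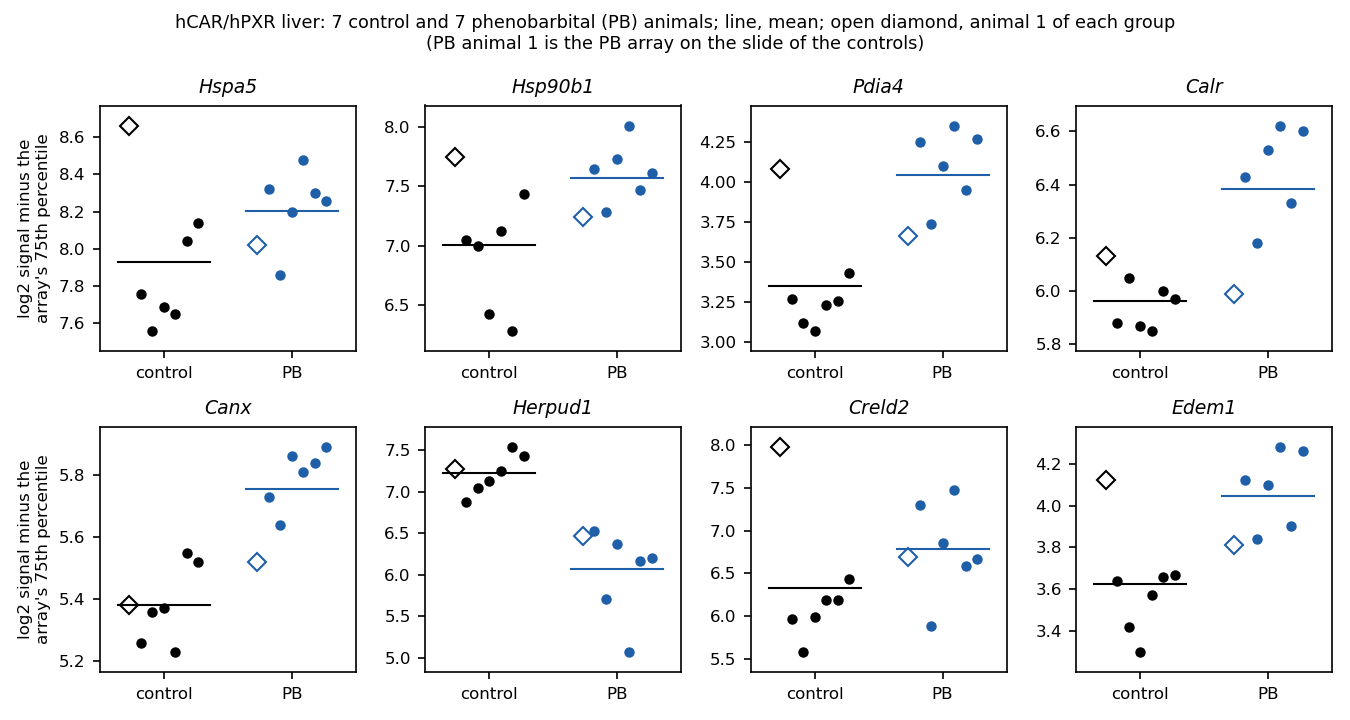
Levels (log2 signal minus the array's 75th percentile) of 8 chaperone-arm genes in 7 control and 7 phenobarbital (PB) hCAR/hPXR animals, with lines at the means and open diamonds for animal 1 of each group. Control animal 1 is the highest control for Hspa5 (8.66), Pdia4 (4.08) and Creld2 (7.98), and Herpud1 lies lower in all treated animals.

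1 untreated hCAR/hPXR mouse stood apart in the chaperone arm. Control animal 1 had the highest control level for 15 of the 20 chaperone-arm genes, and its median deviation was 0.47 against -0.19 to 0.09 in the other 6 controls and 0.06 to 0.64 in the treated animals. Creld2, for example, stood at 7.98 in this animal, above all 7 treated mice (5.88 to 7.48), and Atf4 at 7.43 stood above the highest treated value of 7.16. Without this animal, which was picked after these values were seen, 14 chaperone-arm genes were called higher and 1 lower. Leaving out a control raises the difference by itself in genes where that control was high. The share of all genes called in that fit is not given here, and it was 35.0% higher with all animals. Hspa5 (0.40, adjusted p = 0.0117), Creld2 (0.72, 0.0129), Hyou1 (0.47, 0.00152), Manf (0.49, 0.0173) and Sdf2l1 (0.57, 0.0223) then passed, as did Atf4 in the other arm (0.29, 0.0179), while Atf6 and Asns no longer did. Beside Asns, given above, calls of 4 genes also depended on other single animals: Sesn2 (lost without control 3, 4, 5 or 6 or phenobarbital 2, 4, 6 or 7; adjusted p of up to 0.0929), Atf6 (without any control from 1 to 5, or phenobarbital 2, 3, 4, 5 or 7; 0.0835), Hsp90b1 (without control 4 or 6 or phenobarbital 4 or 5; 0.0639) and Pdia6 (without control 2, 4 or 5 or phenobarbital 5 or 7; 0.0599).

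In CD-1 mice the chaperone arm gave no call by limma, 0 higher and 0 lower of 20, with 5 genes under an unadjusted p of 0.05. Its median change was -0.29 and that of the ATF4 arm -0.39, beside -0.04 over all genes. Dnajb9 was at -0.66, -0.34, 0.14 and 0.39 in controls and 0.54, 0.56, 1.19 and 0.95 in treated mice, without overlap (0.93 ± 0.30, adjusted p = 0.0773), and its second probe read 0.72. Sdf2l1 was at 1.84, 1.35, 1.49 and 1.30 against 0.84, 0.34, 1.29 and 0.56, again without overlap but downward (-0.74 ± 0.29, adjusted p = 0.12). Hspa5 (-0.30 ± 0.36), Hsp90b1 (-0.57 ± 0.34), Herpud1 (-0.64 ± 0.50) and Edem1 (-0.83 ± 0.32) had overlapping groups and did not pass (adjusted p = 0.613, 0.294, 0.423 and 0.12). The remaining genes of the arm lay between -0.58 and 0.78. In the same mice 3 of 7 hepatocyte markers were called lower, beside 6.13% of all genes. Their summed level was 1450 to 3740 with phenobarbital and 3170 to 5360 in controls. Their part in these values was not tested.

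Control levels were read per gene across strains as a description, since strain, slide and scan coincide and the levels depend on the scaling: quantile normalization moved the control level by over 1 SD for 28 of 36 members in CD-1, 15 in hCAR/hPXR and 26 in C3H mice. Atf4 control means were 4.65 ± 0.34 (SD, n = 4) in CD-1, 6.74 ± 0.32 (n = 7) in hCAR/hPXR and 7.34 ± 0.10 (n = 3) in C3H mice. Hspa5 showed the same order, with 4.94 ± 0.61, 7.93 ± 0.39 and 8.15 ± 0.04, and the last 2 of these differ by less than the SD of the hCAR/hPXR controls. Slc7a5 has no settled order: its first probe had control means of 1.15, -1.64 and -3.16, and its second probe ran the other way, with -4.28 (0 of 4 arrays well above background), -3.45 (5 of 7) and -2.96 (2 of 3). Ddit3 did not differ beyond its spread, at 0.11 ± 0.14, 0.32 ± 0.55 and 0.49 ± 0.45.

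Whether the phenobarbital effect differed between strains was tested by the interaction term of a joint limma model of the 28 arrays, adjusted over all genes tested in both strains. The 3 contrasts share groups, and strain here stands for strain, dose, duration, slide and diethylnitrosamine together. Between C3H and hCAR/hPXR mice, 3 of 33 members had a higher effect in C3H mice (3.67% of all 17748 genes did) and 7 a lower one (5.75%). Ddit3 led the first set (2.31 ± 0.39, adjusted p = 0.000322), with Psat1 (2.03 ± 0.64, adjusted p = 0.0442) and Phgdh (1.42 ± 0.41, adjusted p = 0.0283). The second set held 6 chaperone-arm genes and Asns: Hyou1 (-1.27 ± 0.34, adjusted p = 0.0169), Edem1 (-1.03 ± 0.29, 0.0232), Calr (-0.86 ± 0.24, 0.0249), Pdia3 (-0.69 ± 0.21, 0.0339), Ern1 (-0.81 ± 0.24, 0.035), Dnajb11 (-0.86 ± 0.26, 0.0375) and Asns (-1.96 ± 0.60, 0.039). Ddit3 kept its call when any 1 of the 20 animals was left out (2.08 to 2.56), and each of the other 9 genes lost it without some animals, from 2 for Hyou1 (C3H control 3 or phenobarbital 2) to 17 for Psat1, with adjusted p of up to 0.197. The arm medians of this difference were 1.34 and -0.51, beside -0.14 over all genes. Psat1 was tested through the phenobarbital group alone in both strains. With detection required in both groups of each strain the medians were 0.53 and -0.51, beside -0.15 over all genes. After quantile normalization Ddit3 was the 1 member called in this contrast, beside 383 of all 17748 genes called higher and 260 lower. The median over all genes was then -0.02, and 59.6% of all calls were higher in place of 39.0%.

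Between C3H and CD-1 mice 6 of 31 members had a higher effect in C3H mice and 0 a lower one, against 13.6% and 5.13% of all 15549 genes. All 6 were ATF4-arm genes: Ddit3 (2.21 ± 0.43, adjusted p = 0.000729), Phgdh (2.05 ± 0.45, 0.00247), Slc3a2 (1.05 ± 0.24, 0.00289), Ppp1r15a (0.84 ± 0.21, 0.00605), Slc7a5 (2.12 ± 0.73, 0.0425) and Sesn2 (0.66 ± 0.23, 0.0478). For all of these except Ddit3 the effect in CD-1 mice was below 0 (-0.46 for Phgdh, -0.75 for Slc3a2, -0.28 for Ppp1r15a, -1.46 for Slc7a5 and -0.39 for Sesn2), so the contrast reflects both strains. Quantile normalization gave 5 of the 31 members higher, all in the ATF4 arm, and 3 lower, all in the chaperone arm. In that fit 2825 of all 15549 genes were called higher and 1296 lower, shares close to those of the members. Slc7a5 and Sesn2 lost their calls without some animals (8 and 10 of the 14, adjusted p of up to 0.197 and 0.118), and the other 4 genes kept theirs in all 14 fits. The Slc7a5 difference is that of its first probe, whose change in C3H mice is uncertain as given above. Its second probe was not well above background on any CD-1 array. Between hCAR/hPXR and CD-1 mice 10 of 31 members had a higher effect in hCAR/hPXR mice and 0 a lower one, against 29.9% and 10.3% of all 16771 genes, a share close to the background. Pdia3 (0.94 ± 0.19, adjusted p = 0.00047) and Edem1 (1.24 ± 0.26, 0.000737) led these, followed by Canx (0.77), Slc3a2 (0.76), Sdf2l1 (1.17), Pdia4 (0.96), Hsp90b1 (1.13), Calr (0.70), Atf4 (0.69) and Xbp1 (0.72). Atf4 and Xbp1 lost their calls without some animals (6 and 9 of the 22; adjusted p of up to 0.0848 and 0.124), and the other 8 kept theirs. In the last contrast quantile normalization moved the median over all genes from 0.33 to 0.19 and the share of higher calls from 74.4% to 63.5%. It gave 7 of 31 members higher and 3 lower, beside 4277 of all 16771 genes higher and 2462 lower.

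The other genes of the pathways, listed apart from the members, gave the following. Of 30 other ATF4-pathway genes tested in C3H mice (kinases, partner factors, metabolic targets, carriers and aminoacyl-tRNA synthetases), 7 rose and 3 fell, with a median of 0.09, beside 7.38% and 7.30% of all genes and a median of -0.05. Nupr1, a small stress-induced chromatin protein, was at -1.18, -0.41 and -0.70 in controls and 4.08, 3.89 and 4.00 with phenobarbital, a 27.0-fold rise (4.75 ± 0.21, adjusted p = 0.000335). Slc6a9, a glycine carrier, rose 3.33-fold (1.74 ± 0.17, adjusted p = 0.0032), while Tars, a threonyl-tRNA synthetase, fell 2.38-fold (-1.25 ± 0.13, adjusted p = 0.00436) and Cbs, which opens the transsulfuration of homocysteine, fell 2.24-fold (-1.16 ± 0.13, adjusted p = 0.00522). Atf3, a stress-induced partner of CHOP named here after its values were seen, was at -1.57, 0.46 and -1.64 against 3.59, 5.24 and 4.59 and rose 42.1-fold (5.40 ± 0.67, adjusted p = 0.00678). Of 11 aminoacyl-tRNA synthetases tested, 1 rose and 1 fell.

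Of 31 other ER genes tested in C3H mice (translocation, folding and degradation), 0 rose and 1 fell by limma, beside 7.38% and 7.30% of all genes. Of these ER genes 3 were under an unadjusted p of 0.05, and their median was 0.04. Among hCAR/hPXR mice 18 of 31 rose and 1 fell, with a median of 0.36, beside 35.0% and 23.2% of all genes and a median of 0.13. Among these other ER genes, those with the smallest adjusted p in the fit without a slide term were Txndc5, P4hb, Sil1 and Fkbp11. Txndc5, an ER thioredoxin, rose 1.56-fold, P4hb, the main disulfide isomerase, 1.40-fold and Sil1, a BiP exchange factor, 1.41-fold. Fkbp11, a prolyl isomerase, fell 3.01-fold (limma adjusted p = 0.000134, 0.000175, 0.000262 and 0.00013). Slide and treatment cannot be told apart for most of these hCAR/hPXR arrays. Of 31 other ATF4-pathway genes there, 16 rose and 2 fell, against the same shares of all genes. In CD-1 mice 1 of 25 other ATF4-pathway genes rose and 2 fell, beside 1.85% and 6.13% of all genes. They were Gdf15 (3.64-fold higher, a stress hormone of the liver), Atf5 (2.66-fold lower, a relative of Atf4) and Cbs (2.45-fold lower). Their limma adjusted p were 0.0205, 0.0181 and 0.0425. Of 30 other ER genes in CD-1 mice 0 were called in either direction by limma, with 7 under an unadjusted p of 0.05.

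Markers of cell types moved in C3H mice as well. All 7 hepatocyte markers were lower with phenobarbital, 4 of them called, beside 7.38% of all genes called higher and 7.30% lower. Their summed level (linear signal over the array's 75th percentile) was 4300 to 5840 against 7630 to 8320 in controls. Of 6 stellate cell and fibroblast markers tested 0 were called, although 5 were higher and their sum was 9.78 to 30.3 against 6.53 to 11.8. Of 9 exocrine pancreas markers 3 were tested, of which Cela1 (4.31) and Cela3b (2.97) rose and Ctrb1 (-0.77) fell, while Cpa1, Cpb1, Pnlip, Prss2 and Ptf1a were well above background on no C3H array. Of 3 bile duct markers tested, Krt19 rose (2.90) and Sox9 fell (-2.80). Of 3 plasma and B cell markers tested 0 rose and 1 fell, Sdc1 (-0.95), and of 6 endothelial markers 1 rose and 1 fell. In hCAR/hPXR mice 0 of 7 hepatocyte markers were called by limma and by an unadjusted p, their sums were 3520 to 4190 in controls and 3130 to 4230 with phenobarbital. Markers of other types were called in both directions there, beside 35.0% of all genes called higher and 23.2% lower. Higher and lower calls were 2 and 0 of 3 for bile duct cells, 2 and 0 of 6 for Kupffer cells and 2 and 1 of 6 for endothelial cells. They were 2 and 1 of 6 for stellate cells, 0 and 2 of 4 for neutrophils, 2 and 0 of 4 for plasma and B cells and 0 and 1 of 2 for exocrine pancreas. The part of these cell types in the results above was not tested.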

How the data were processed

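Total liver RNA of 28 male mice was read on 1-colour (Cy3) Agilent arrays, 1 per animal. The deposited scanner files hold spot intensities made by Agilent Feature Extraction 10.7.3.1, with a background-subtracted and a processed signal per spot, per the file headers. The deposited value table equals the log2 processed intensity minus a constant per array, and it was used as an alternative. Control spots and the 109 to 430 outlier spots of each array were left out here, spots of 1 probe were averaged, and log2 processed signal minus each array's 75th percentile was taken. A gene was read by its probe with the highest mean over arrays. Groups were compared within each strain by moderated linear models (limma 3.58.1, R 4.3.3; Benjamini-Hochberg adjustment, threshold 0.05), a procedure checked on simulated data. The number of arrays limits the precision, leaving 6 residual degrees of freedom for CD-1, 12 for hCAR/hPXR and 4 for C3H mice. All members are named whatever their values. Of 68 listed other pathway genes (67 on the array), up to 4 called ones with the smallest adjusted p are named per strain. Strain differences name up to 10 called members per pair. Members and lists were chosen with earlier results of these data known. Slide was tried as a block, replicate numbers as another. Promoter windows were taken from RefSeq, GRCm38.p6; no genome was used here. The summed level of 1 marker list is not reported here.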

Additional observations from a re-analysis of the deposited data

Results flagged for a closer look

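Of 144 groups of 4 or more animals examined for the members, 15 held a single animal that lay far from its fellows. Chance would give about 1 in 20 if the groups were independent. They are not, since the same animals were read for every gene, so the 2 rates cannot be compared. In 9 of the 15 flagged groups the animal was hCAR/hPXR control 1, each time the highest: Atf4 (7.43), Ddit3 (1.51), Dnajb9 (4.69), Dnajc3 (5.05), Sdf2l1 (4.27), Hyou1 (0.31), Pdia4 (4.08), Sel1l (3.36) and Creld2 (7.98). The other 6 were spread over animals. Shmt2 was low in hCAR/hPXR phenobarbital animal 5 (2.59), and Mthfd2 was low in the same animal (-5.19) and in hCAR/hPXR control 4 (-4.93); this gene was well above background on 4 of 7 treated and 6 of 7 control arrays and was not tested in that strain. Canx was low in CD-1 phenobarbital animal 1 (2.01), Herpud1 was high in CD-1 control 3 (3.96) and Creld2 was high in CD-1 phenobarbital animal 3 (3.56).

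The phenobarbital effect on 26 occasions differed between strains by the interaction term in limma. It was higher in hCAR/hPXR than in CD-1 mice for Atf4 (0.69), Slc3a2 (0.76), Xbp1 (0.72), Hsp90b1 (1.13), Sdf2l1 (1.17), Pdia3 (0.94), Pdia4 (0.96), Calr (0.70), Canx (0.77) and Edem1 (1.24). It was higher in C3H than in CD-1 mice for Ddit3 (2.21), Ppp1r15a (0.84), Sesn2 (0.66), Phgdh (2.05), Slc3a2 (1.05) and Slc7a5 (2.12). Against hCAR/hPXR mice, the C3H effect was higher for Ddit3 (2.31), Psat1 (2.03) and Phgdh (1.42). It was lower for Asns (-1.96), Ern1 (-0.81), Dnajb11 (-0.86), Hyou1 (-1.27), Pdia3 (-0.69), Calr (-0.86) and Edem1 (-1.03).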

How the results depend on the processing

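Ddit3, Trib3 and Phgdh kept their calls in C3H mice under each alternative run and with any 1 animal left out. Other counts moved, and the cause was not tested. Counts over all genes stand in brackets. With quantile normalization CD-1 mice had 1 member higher (811 of 23837), and 33.7% of all CD-1 calls were then higher in place of 23.1%. In that setting hCAR/hPXR mice had 4 higher (5473 of 20040) with an ATF4-arm median of -0.07, and C3H mice 6 lower (1189 of 18274). Between C3H and hCAR/hPXR mice 1 member differed (383 higher and 260 lower of 17748). Normexp with quantile normalization gave 39.1% of CD-1 calls higher, 3 members lower (2314 of 23837) and an ATF4-arm median of -0.21 in CD-1. In hCAR/hPXR it gave 5 higher (5579 of 20040) with medians of -0.03 and 0.15 (chaperone arm), and Slc3a2 called lower (-0.19). In C3H it gave 7 lower (1395 of 18274) and an ATF4-arm median of 0.48. Between the last 2 strains 6 members differed (693 higher and 681 lower of 17748). Slide as a block and the mixed slide alone both set phenobarbital animal 1 against the 7 hCAR/hPXR controls, so they are not 2 separate checks. They gave ATF4-arm medians of 0.01 and -0.06, chaperone-arm medians of 0.12 and 0.12, and Atf6 at -0.19 in both. Detection in both groups gave 1 higher in CD-1 (275 of 17101). Averaging all probes gave 2 lower in CD-1 (1089 of 23837) and Dnajb11 at -0.27 in hCAR/hPXR mice. Fitting all 6 groups gave 2 higher and 6 lower in CD-1 (1755 and 4432 of 23837), close to the shares of all genes, and 1 lower in C3H (1440 of 18274). An intensity trend gave 5 lower in C3H (1467 of 18274). No filter on dim probes gave 0 lower in C3H (144 of 37208). That setting left 3 members differing between C3H and hCAR/hPXR (645 higher and 692 lower of 37208). With 1 animal left out, C3H mice had 3 to 8 members higher and 0 to 4 lower, with a chaperone-arm median of -0.35 to -0.13, and 2 to 12 members differed between C3H and hCAR/hPXR mice. The shares of all genes called in those fits are not given here. Replicate numbers were not shown to pair animals: same-numbered animals correlated by -0.4493 to 0.063 in CD-1, -0.1255 to 0.2656 in hCAR/hPXR and 0.042 to 0.184 in C3H mice, where each matched its own number best, a hint from the data only. As a replicate block these numbers left 0 higher and 1 lower in CD-1 (260 and 901 of 23837) and 10 higher and 3 lower in hCAR/hPXR (6817 and 4611 of 20040). They left 4 higher and 0 lower in C3H (950 and 593 of 18274). Between C3H and hCAR/hPXR mice 5 members then differed (477 higher and 589 lower of 17748). Signal over background limits what could be measured: by the probes used, 5 members were not tested in CD-1, 3 in hCAR/hPXR and 1 in C3H mice.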
